A study of Sus scrofa with 8 samples.

Results

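OAS1 and OAS2 are the pig genes for 2'-5'-oligoadenylate synthetases, and the blood arrays carried 6 probes for them among 43603 probes that are not controls. A probe was taken as a member when the scanner files named its gene as OAS1 or OAS2 or when its description named 2'-5'-oligoadenylate synthetase 1 or 2. This gave 3 probes for OAS1 and 3 for OAS2. All 6 were among the 17353 probes that were tested, that is, well above background by the scanner software's flag on at least 4 of the 8 arrays. OAS1 and OAS2 were chosen by their probe levels on these same 8 arrays, which were known beforehand. Their differences between the diets and between animals, and the counts of probes that reached the same gaps or ranges, are therefore given as a description.

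The 2'-5'-oligoadenylate synthetases are enzymes of antiviral defence whose genes are switched on by interferons. When they bind double-stranded RNA they join ATP into short 2'-5'-linked oligoadenylates, and these set off the breakdown of viral and cellular RNA. OAS1 has a single catalytic unit and OAS2 carries repeated units. In blood, white cells of many types make both, and their transcripts are widely read as a sign of interferon exposure. OAS2 and OAS1 lie next to each other on pig chromosome 14 in the gene order of Sscrofa11.1, and OASL, a relative, lies elsewhere on chromosome 14; probe positions in the genome were not determined here.

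Blood was drawn into PAXgene tubes from 8 female pigs of the Clawn miniature breed, 8 to 9 months old and labelled as conventional animals. The control animals (n = 4) ate standard dry feed, and the SDW animals (n = 4) ate dry feed, water and shochu distilled water (SDW), a liquid from the making of a Japanese spirit, in equal parts by weight. The series text puts sampling at 12 weeks of feeding, while the sample descriptions give from 14 to 17 weeks, with the same number for same-numbered animals of both diets. Each animal gave 1 array read in 1 colour; no animal was sampled again, so the spread within a diet joins animal and array. Levels are log2 processed spot signals minus the log2 of that array's 75th percentile, which ranged from 39.9 to 73.1 signal units, and no probe was saturated. Slide 1 carried control 3 with SDW 2 and SDW 3, slide 2 carried SDW 1 with control 2 and control 4, and slide 3, scanned on another day, carried control 1 with SDW 4. The number of arrays limits the precision of every value.

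The probes of a gene were designed on different records or at different bases, and whether this bears on how far they agreed was not tested. Identifiers are shortened here by leaving out the array's common prefix A_72_. For OAS1, P223657 was designed on the gene's RefSeq record from base 871, P428594 on an assembled transcript described as pig OAS1 from base 1129, and P293394 on a cDNA clone from base 1694. For OAS2, P108986 and P303179 were designed on the same RefSeq record, from bases 2210 and 3327, and P025136 on an assembled transcript from base 862 of it. Each probe is 60 bases long and was spotted 1 time. The sequences below, read from the scanner files and written 5′ to 3′, are whole for P223657 and stretches of 30 bases for the others; capitals in P293394 mark both stretches that are followed further on, and capitals in the last pair mark the bases at which those probes differ.
P223657: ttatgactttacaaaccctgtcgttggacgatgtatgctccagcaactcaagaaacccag
P428594: ctaccatctggtttaaataataataacctc
P293394: CATATGCCacatgtgggGCCCTAAAAAgac
P108986: atggactgatagtgctggaagaaacctcta
P303179: atcctctataataaaaTgtgattgTAcaga
P025136: atcctctataataaaaGgtgattgCGcaga

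OAS2 probes P303179 and P025136 are nearly the same sequence. Shifted by 1 base, they overlap over 59 bases and are identical at 55 of them (93.2%). Counted from 1 at the 5′ end of P303179, with its base first and that of P025136 last, the differences are T13C, T46G, T54C and A55G. Both hold AATAAA, the signal for adding the poly(A) tail, in the sense direction, as do P293394 and 12.1% of all probes (5279 of 43603). Of the 6 probes, P303179 and P025136 shared a run of 16 bases or more with each other and with no other probe on the array. P223657, P428594 and P108986 shared such a run with no probe on either strand. P293394 shared one with 9 other probes on the same strand and 4 on the opposite strand, and none of these was an OAS1 or OAS2 probe. Over the array, 12.4% of the probes shared such a run with another probe on the same strand.

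OAS1 probe P223657 gave the widest range over the animals among the tested probes. The controls stood at 7.33, 2.90, 3.85 and 3.71 (replicates 1 to 4), and the SDW animals at 3.09, -0.89, 3.98 and -2.60. Control 1 was therefore the highest animal, by 3.35 over the next, and SDW 2 and SDW 4 were the lowest, both at least 3.78 below the other 6 animals, whose lowest level was 2.90. SDW 4 was not well above background, and the scanner software's error there was 37.0% of the signal against 11.5% or less in the other animals. The range over the animals was 9.93 on the log2 scale, and 1 of the 17343 tested probes with a value on all arrays, P223657 itself, reached it; since SDW 4 sets its lower end, the range is a bound.

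OAS1 probe P428594 had the same animals apart from the rest. The controls gave 1.07, -1.17, -0.52 and -1.30, and the SDW animals -1.75, -5.06, -0.94 and -4.08. Control 1 was again highest, and SDW 2 and SDW 4 again lowest, with a gap of 2.33 to the other 6 animals. Both low values were not well above background, with scanner errors of 99.8% and 99.7% of the signal, so they are bounds and their order carries no meaning. Over all tested probes with a value on every array, 206 (1.19%) had SDW 2 and SDW 4 below the other 6 animals, and 2, these same OAS1 probes, had them lower by at least this gap. Nothing is read from these counts, since OAS1 was chosen with its values known and the gap of P428594 is set by a bound. Across the 8 animals P428594 and P223657 correlated with a Pearson r of 0.95 and a Spearman rho of 0.88. Without SDW 2 and SDW 4, the animals farthest from the median, r was 0.95 over the other 6. Control 1, the highest animal for both probes, is among those 6 and weighs heavily in that value. Without control 1 alone r was 0.92.

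OAS1 probe P293394 did not share this pattern. Its levels were 7.37, 6.86, 6.77 and 6.21 in controls and 7.05, 6.69, 6.93 and 7.10 in SDW animals. All animals lay within 1.16 of each other, a range that 45.3% of the tested probes kept within. SDW 4, the lowest animal for P223657, was the second highest here, and SDW 2 stood 0.21 below the median of the animals against 4.28 below it for P223657. P293394 correlated with P223657 at r = 0.15 (rho = 0.17) and with P428594 at r = 0.23 (rho = 0.26) over the 8 animals. Without control 1 these correlations were -0.33 and -0.16, and without SDW 4 they were 0.48 and 0.43. Without both SDW 2 and SDW 4, r between P293394 and P223657 was 0.55 over the other 6 animals, control 1 among them. With OAS2 probe P303179, P293394 correlated at 0.40, and at -0.31 without control 1.

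OAS2 probes P303179 and P025136 gave nearly the same deviations in every animal. P303179 stood at 10.46, 7.29, 7.78 and 7.32 in controls and at 7.53, 7.30, 7.66 and 5.86 in SDW animals. Control 1 lay 2.68 above the next animal and SDW 4 was the lowest, while the other 6 animals fell between 7.29 and 7.78. Relative to the median of the other 7 animals control 1 was 8.83-fold higher for P303179 and 7.62-fold higher for P025136. For P025136, control 1 lay 2.48 above the next animal, controls 2 to 4 were at 7.10, 7.62 and 7.17 and the SDW animals at 7.31, 7.17, 7.53 and 5.71. Its deviations from its own median differed from those of P303179 by at most 0.18 in any animal. The correlation between them was 1.00 after rounding, and the 4 differing bases went with no change in the order of the animals (rho = 1).

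OAS2 probe P108986, from further upstream in the record, showed control 1 apart and little else. Controls were at 3.64, -0.49, 0.11 and -0.30, and SDW animals at -1.30, -0.73, -0.01 and -1.23. Control 1 exceeded the next animal by 3.53, a gap that 5 of the 17343 tested probes reached or passed, whereas 11 reached the gap of P303179. SDW 1 was the lowest animal, with SDW 4 close to it. The correlation of P108986 with P303179 was 0.93 (rho = 0.74), and it was 0.61 without control 1. All 3 OAS2 probes were well above background in every animal.

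OAS1 probes P223657 and P428594 and the OAS2 probes were close in most animals and differed most in SDW 2 and SDW 4. In control 1, P223657 stood 3.93 and P303179 3.03 above the median of the animals. In SDW 4 both were at their lowest, but P223657, not well above background there, fell 4.44 further below its median than P303179, which was 1.56 below. In SDW 2, P223657 was 4.28 below its median and P428594 3.83 below, whereas P303179 was 0.12, P025136 0.07 and P108986 0.33 below theirs. P223657 and P303179 correlated at r = 0.85 over all animals (rho = 0.93) and at 0.98 over the 6 that remain without SDW 2 and SDW 4. Those 6 include control 1, which stood 3.35 above the next animal for P223657 and 2.68 for P303179 and weighs heavily in that value. Without control 1 alone r was 0.84, and r without SDW 2, SDW 4 and control 1 together was not computed. These correlations share the arrays and their scaling and are given as descriptions.

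Between the diets, 5 of the 6 probes were lower in SDW animals by at least 1 on the log2 scale, where 0.576% of the tested probes were, and nothing is read from this because the genes were chosen with these values known. For P223657 the controls averaged 4.45 ± 1.97 and the SDW animals 0.89 ± 3.15 (SD, n = 4 each), so that SDW minus control was -3.55 (standard error 1.46). For P428594 it was -2.48 (standard error 0.89), from means of -0.48 ± 1.09 and -2.96 ± 1.93 (SD, n = 4 each). Because 2 of the SDW values of P428594 and 1 of P223657 were not well above background, these means, errors and differences are set in part by bounds. P293394, the remaining OAS1 probe, averaged 6.80 ± 0.48 in controls and 6.94 ± 0.18 in SDW animals (SD, n = 4 each), and SDW minus control was 0.14 (standard error 0.27). The 3 probes of OAS1 thus gave differences of very unequal size, and that of P293394 was within its standard error and turned to -0.056 without control 4.

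For OAS2 the differences were smaller. For P108986, SDW minus control was -1.56 (standard error 0.82), from means of 0.74 ± 1.95 and -0.82 ± 0.59 (SD, n = 4 each). P303179 averaged 8.21 ± 1.51 in controls and 7.09 ± 0.83 in SDW animals (SD, n = 4 each), which gave -1.12 (standard error 0.70), and P025136 gave -1.07 (standard error 0.67). For all 6 probes the animals of the diets overlapped, whereas 0.985% of the tested probes had diets that did not overlap. No probe on the array passed an adjusted p of 0.05 in limma (0 of 17353, 0%; 251 had an unadjusted p under 0.05, and 904 with the pairs of the authors' value table as a replicate block, where 0 passed too), so none of the 6 did.

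Most of the OAS2 difference lay between control 1 and SDW 4, the arrays of slide 3. Without control 1 the difference was -0.37 for P303179, -0.37 for P025136 and -0.59 for P108986. Without both arrays of slide 3 it was 0.04 for P303179 and for P025136 and -0.45 for P108986. Within slides 1, 2 and 3, P303179 differed by -0.30, 0.23 and -4.60 between SDW and control animals. With slide as a fixed block the OAS2 differences stayed negative. They were -1.28 (standard error 0.71) for P303179, -1.23 (0.67) for P025136 and -1.83 (0.66) for P108986. For 2 of the OAS1 probes more of the difference was left: P223657 came to -2.59 without control 1 and -1.43 without slide 3, and P428594 to -1.96 and -1.59. P293394 came to 0.33 and 0.28. Outside slide 3, SDW 2 was the lowest animal for P223657 (-0.89) and P428594 (-5.06, a bound). SDW 1 and SDW 3 were at 3.09 and 3.98 for P223657, beside controls 2 to 4 at 2.90 to 3.85. For P428594 they were at -1.75 and -0.94, beside -1.30 to -0.52. Within the slides P223657 differed by -2.31, -0.21 and -9.93, the slide 3 value being SDW 4 against control 1 alone and a bound, since that SDW 4 spot was not well above background. P428594 differed within them by -2.48, -0.51 and -5.15 (the first and last again set by bounds), P108986 by -0.48, -0.91 and -4.86, and P293394 by 0.04, 0.52 and -0.27. Without SDW 4, P223657 differed by -2.39. After normexp background correction, which adds an offset of 50 to every signal, P428594 differed by -0.56, P108986 by -0.95 and P223657 by -2.37. The arrays of slide 3 also stood apart beyond the OAS probes. On the first principal component, the main axis of variation between the arrays, control 1 was at -88.69 and SDW 4 at -72.54. All other animals had positive values there. Both arrays of slide 3 thus lay on the same side of this axis, whereas they were the highest and lowest animals for P223657 and P303179. The part of this axis in the OAS levels was not tested.

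OASL, a synthetase-like relative of both genes that in humans lacks their enzymatic activity, had a tested probe and did not pass the test. It was at 3.48, 1.76, 1.32 and 0.92 in controls and 1.69, 4.54, 1.63 and 1.43 in SDW animals. SDW 2 was thus the highest animal for OASL, 2.92 above the median of the others, and control 1 came next. The difference between the diets was 0.45.

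Interferon-stimulated genes set the OAS probes in context. In 8 of 9 measured genes of the list, control 1 and SDW 2 were the highest pair of animals, in either order, which held for 3.17% of all tested probes. MX1, a GTPase that blocks virus replication, was at 10.25 in control 1 and 9.10 in SDW 2, with the other animals between 6.46 and 7.79. RSAD2, which makes an antiviral nucleotide, was at 5.40 in control 1 and 5.79 in SDW 2, and at 3.79 or less elsewhere. USP18, which removes ISG15 from proteins, was at 6.54 and 5.60 in these animals and at 3.97 or less elsewhere. CXCL10, a chemokine that draws T cells, reached 4.04 and 4.27 and stood at 1.41 or less in the others.

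The remaining genes named from the list followed with smaller gaps. MX2, a relative of MX1, was at 6.42 in control 1 and 5.69 in SDW 2. EIF2AK2, a kinase that halts translation on binding double-stranded RNA, was at 4.08 and 4.23, and IFIH1, a sensor of that RNA, at 1.62 and 1.71. The exception was IFITM1, a membrane protein that hinders virus entry, with 10.77 in control 1 and 9.74 in SDW 2, where SDW 4 held 9.85. Apart from P293394, the OAS probes shared the high level of control 1 with these genes, but no OAS1 or OAS2 probe was high in SDW 2. For P293394 control 1 stood only 0.27 above the next animal. Control 1 was the highest animal for 4 of the 9 genes, against 18.9% of all tested probes. SDW 4 was the lowest animal for 5 of the 9 genes, against 15.3% of all tested probes, and had the lowest mean deviation over the list (-0.91). In SDW 4 RSAD2 stood at 1.63, EIF2AK2 at 2.17, IFIH1 at -0.24 and USP18 at 3.45, each the lowest of the 8 animals, whereas MX1 stood at 7.37 and IFITM1 at 9.85.

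Of the 50 interferon-stimulated genes listed, 10 were named on the array and 9 were measured. Of these 9, 8 were lower in SDW animals and 1 was higher, where 47.1% of all tested probes were lower. Their median difference was -0.20 against 0.02 over all tested probes, and 0 passed the test. Without control 1 the median was 0.39. Of 14 interferon signalling genes, 5 had control 1 and SDW 2 as the highest pair, 10 were lower and 4 higher, with a median of -0.13, and 0 passed; without control 1 the median was 0.10. IRF7, which drives interferon genes, was at 9.08 in control 1, 7.92 in SDW 2 and 7.13 or less in the others. A second IRF7 probe was also highest in control 1 (7.55), but SDW 2 (5.56) lay below control 3 (6.72), SDW 3 (6.55), control 4 (5.84) and SDW 4 (5.61). The probes for the interferon genes IFNA1, IFNB1 and IFNE were not well above background on any array. Of 9 measured genes of an MHC class I list, 6 had control 1 as the highest animal, 7 were lower and 2 higher, and 0 passed. Their mean deviation from each gene's average was 0.99 in control 1, 0.36 in SDW 4 and 0.02 or less in the other animals.

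Markers of blood cell types also varied between these animals, and 0 of them passed the test. Of 14 neutrophil markers listed, 6 were measured and 6 were lower in the SDW group (median -0.59), where 47.1% of all tested probes were lower. Their mean deviation from each gene's average ranged from -0.26 to 0.93 in controls, with control 1 at 0.93, and from -0.60 to 0.13 in SDW animals, with SDW 4 at 0.13 and SDW 2 at -0.60. Of 5 monocyte markers 3 were higher, and their score ran from -0.32 to 0.34 in controls and from -0.47 to 0.86 in SDW animals, with SDW 2 at 0.86. FCGR1A, well above background on 4 arrays, set most of that value: without it the score of SDW 2 was 0.20 and that of control 3, the highest, 0.61, and CD14 in SDW 2 was at 2.96, below its mean of 3.53. Of 6 T cell markers 3 were lower, and their score ran from -0.16 to 0.25 in controls and from -0.42 to 0.26 in SDW animals. The list of dendritic cell genes, with 3 measured, includes IRF7, and all 3 were lower. Of 2 measured genes of NK and cytotoxic cells 2 were lower (median -0.64), and the 1 measured B cell gene was lower (-0.51). Of 2 platelet genes 1 was lower and 1 higher. No gene of the erythroid list was named on the array. In whole blood, fewer cells of a type and less RNA per cell cannot be told apart, and the part of cell mixture in the OAS levels was not tested.

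The sequence of P293394 was followed because this probe parted from the other OAS1 probes. Many tested probes moved with it across the animals: 354 of 17342 (2.04%) had an r above 0.9 with it, against 4 for P223657, 7 for P428594, 14 for P303179 and 24 for P108986. Both stretches marked in its sequence, CATATGCC and GCCCTAAAAA, were picked after its values were seen, and neither was in another OAS1 or OAS2 probe. CATATGCC stood on the same strand in 94 other probes (0.216% of the array), of which 63 were tested. Their median r with P293394 was 0.90, with quartiles of 0.71 and 0.96, and 31 of them (49.2%) were above 0.9. Over all other tested probes the median was 0.08 and the quartiles were -0.41 and 0.52.

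On the opposite strand CATATGCC stood in 45 probes, of which 16 were tested, with a median r of 0.09 and 1 above 0.9. GCCCTAAAAA stood on the same strand in 59 other probes (0.135% of the array), 50 of them tested, with a median r of 0.88 and 21 (42.0%) above 0.9. On the opposite strand it stood in 21 probes, 11 of them tested, with a median of 0.73 and 3 above 0.9. The medians of the strands thus lay closer together for this stretch, over few probes. Taking both stretches, 104 tested probes held either on the same strand, and 47 of these (45.2%) were above 0.9, while 304 of the 17212 tested probes with neither stretch (1.77%) were. These groups also differed in brightness. The median of the mean levels was 5.36 for CATATGCC on the same strand and 0.69 on the opposite strand. For GCCCTAAAAA it was 4.86 and 1.47, and over all other tested probes 0.81. P293394 itself averaged 6.80 in controls and 6.94 in SDW animals. The parts of level, strand and sequence in the correlations were not tested. Short interspersed repeats, such as the PRE-1 family, occur in very many copies in the pig genome and in the untranslated ends of many transcripts. Whether the stretches of P293394 belong to such a repeat was not tested, since no repeat annotation was used. The correlations rest on the same 8 arrays and their scaling.

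The named genes most like each OAS probe differed between the probes of OAS1. For P293394 they were AKR1B1, an aldose reductase (r = 0.97), TTN, the muscle protein titin (0.96), VTN, the plasma protein vitronectin (0.96), CD47, a surface signal that restrains phagocytes (0.96), and DNMT3A, a DNA methyltransferase (0.95). None of these 5 probes held either stretch on the same strand. Other tested probes of the same genes were less alike: a second VTN probe had r = 0.03 with P293394, a second AKR1B1 probe 0.56, and 2 further DNMT3A probes 0.93 and -0.40.

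For P223657 the nearest named genes were PIK3R5, a PI3-kinase regulatory subunit (r = 0.84), the endocytic receptor LY75 (0.79), the transcription factor CREB1 (0.78), SFN (0.76) and NPG4, an antimicrobial protegrin (0.75). For P428594 they were CREB1 (0.90), PIK3R5 (0.82), NPG4 (0.80), PNOC (0.77) and PDE4B, a cyclic AMP phosphodiesterase (0.75), so 3 of the 5 genes were the same as for P223657 and none was shared with P293394. For OAS2 probe P303179 they were SFN, an adaptor of the 14-3-3 family (0.84), OVGP1 (0.82), the peptidase PREP (0.80), PNOC (0.80) and PIK3R5 (0.79). Those of P303179 rested on control 1: without it the 5 correlations ran from -0.11 to 0.48. Without control 1 those of P223657 ran from 0.57 to 0.77, those of P428594 from 0.59 to 0.90 and those of P293394 from 0.93 to 0.98.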

How the data were processed

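Each array's deposited scanner file holds linear spot intensities. The file headers name Agilent Feature Extraction 10.1.1.1 and the submitters' processing notes version 9.5.3.1. The authors' processed signal was background-subtracted and detrended within the array, according to the headers, and arrays were not normalized to each other. The authors' value table also holds intensities of these arrays, deposited without a stated method; 7 of its 8 columns matched another replicate's scanner file of the same diet, and replicate names here follow the scanner files. Control and outlier spots were left out, and log2 of the processed signal minus the array's 75th percentile was taken. Diets were compared with limma 3.58.1 in R 4.3.3 (lmFit, eBayes, two-sided, Benjamini-Hochberg over all 17353 tested probes, no covariate). The code was also run on simulated levels with independent noise and no slide effect, a setting that differs from these arrays.

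The members, lists and tests were chosen with earlier results of these data known. A list gene was read from its tested probe of highest mean level. The genes named were all OAS1 and OAS2 probes, measured members of a list of the OAS pathway (not all are reported here), the 8 interferon-stimulated genes of highest level, and the 5 named genes most like the OAS1 and OAS2 probe of highest level, or like a probe that correlated with it at under 0.5. IRF7, FCGR1A, CD14, P092736 and the stretches of P293394 fall outside this rule and were picked with their values known. The interferon genes IFNA1, IFNB1 and IFNE also fall outside it. Symbols came from the files and the pig gene table; 2874 of 43603 probes have one. Animals are the replicates. Alternatives were other background corrections, scalings and filters, the authors' table, slide and replicate blocks, and each array left out. Animals given the same number in the authors' value table had correlated deviations from the diet means (0.28, 0.25, 0.51 and 0.64), and 3 of these 4 pairs share a slide, so pairing and slide cannot be told apart there; the numbers of the labels did not.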

Additional observations from a re-analysis of the deposited data

Results flagged for a closer look

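Within each diet, 30 probes or genes gave 60 groups of 4 animals, and in 8 groups the highest or lowest animal stood apart from the rest by a gap of more than 0.829 of the group's range; chance gives about 1 in 20. The OAS probes and the genes like them were chosen on these arrays, and the groups share animals, so the number of such groups cannot be read against that share. OAS2 probes P108986 (gap 0.854 of the range) and P303179 (0.845) were among them through control 1, as were IFITM1 (0.859) and USP18 (0.844), so 4 of the 8 were control 1 at the top. SDW 2 at the top gave OASL (0.917; 4.54 against 1.69 in the next SDW animal), CXCL10 (0.870; 4.27 against 0.90) and IFIH1 (0.858; 1.71 against 0.04). The last was NPG4, for which control 2 was the lowest control (0.877; 2.42 against 3.11).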

How the results depend on the processing

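The count of probes at an unadjusted p under 0.05 in limma was 251, against 162 with normexp, 165 with only probes well above background on all 8 arrays, 823 with no filter, 1143 with slide as a fixed block, 631 as a random block, 543 without slide 3 and 904 with the pairs of the authors' table as a replicate block. It ran from 179 to 518 with 1 array left out (420 without control 1, 441 without SDW 3, 518 without SDW 4). No probe passed an adjusted p of 0.05 with any of these, except 1 unnamed probe, P092736, without slide 3 (adjusted p = 2.8e-05), named after its value was seen. The labels' replicate numbers did not pair the animals (correlations of deviations -0.17, 0.11, 0.33 and -0.38); as a replicate block they gave 239 probes and left the difference of P223657 at -3.55 and changed no call. The count with an absolute difference of at least 1 was 191, against 17 with normexp, 46 with the filter on all arrays, 997 with no filter, 383 with slide as a fixed block and 401 without slide 3.

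With 1 array left out, the difference ran from -4.58 to -2.39 for P223657, -3.15 to -1.78 for P428594, -1.97 to -0.59 for P108986, -1.43 to -0.37 for P303179 and -1.37 to -0.37 for P025136, and from -0.056 (without control 4) to 0.33 for P293394. Without slide 3, P303179 turned to 0.037 and P025136 to 0.038. With normexp P428594 was -0.56, P108986 -0.95 and P223657 -2.37, while P303179 was -1.14. The correlation ran from -0.33 to 0.48 between P223657 and P293394, -0.16 to 0.48 between P293394 and P428594, 0.61 to 0.97 between P108986 and P303179, and 0.64 to 0.97 between P108986 and P025136, the lowest each time without control 1. The median of interferon-stimulated genes ran from -0.87 to 0.39 and that of interferon signalling genes from -0.24 to 0.10, the highest without control 1. Dim signals limit P428594 and the SDW 4 value of P223657. They also limit P108986 outside control 1, where its processed signals ran from 17.1 to 47.7 units. Apart from fewer arrays or probes, the cause of these shifts was not tested.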
